A study of Mus musculus with 13 samples.

Results

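Described here are 42 genes of the extracellular matrix: chains of collagen, matrix glycoproteins, proteoglycans and laminins, and matrix proteases with their inhibitors. The genes were chosen by name, with earlier results of these data known. They were looked up in 3 tables of differential expression, 1 for each compound against vehicle. At least 1 table held 23 of them, of 1592 gene names in all the tables, and 19 were in none. RNA was sequenced from 13 samples of primary cultured cells labelled astrocytes, a class of glia. Their source was the retina and optic nerve of C57BL/6 mice, wild type, at postnatal day 1 to 3, and the medium held serum. All samples were taken after 24 h: 4 with vehicle and 3 each with SB431542, HLM006474 or an inhibitor of the transcription factor RUNX1 and its partner CBFB, called the RUNX1 inhibitor here and marked in the plots by its compound code, which begins with Ro5. The labels give no dose and do not say whether animals were pooled or cultures were separate. The p-values may therefore rest on technical spread between samples alone. SB431542 blocks type I receptor kinases of TGF-beta and activin, and HLM006474 acts against the E2F family of transcription factors.

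Matrix genes encode what cells secrete around themselves. Collagen chains form fibrils or basement membrane sheets, glycoproteins such as fibronectin link the fibrils to cell surface integrins, proteoglycans fill and hydrate the mesh, and metalloproteases and their inhibitors set how fast it is turned over. TGF-beta is a well known inducer of matrix genes in many cell types, and astrocytes of the optic nerve are among the cells that lay down matrix there.

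Every listed change of the 42 genes was a fall. SB431542 lowered 20 of the 42 matrix genes (47.6%) and raised none, beside 4.93% of the 15169 genes tested that were listed (2.64% lower, 2.29% higher). The RUNX1 inhibitor lowered 4 and raised none (9.52%), beside 2.93% of 13561 genes (2.32% lower, 0.605% higher). HLM006474 lowered 3 and raised none (7.14%), beside 5.64% of 15169 genes (4.22% lower, 1.42% higher). Judged by the listed values, entry into a table took a change of about 1.5-fold or more besides an adjusted p below 0.05, so a matrix gene outside a table may have changed less, may have varied too much, or may not have been tested. The share under HLM006474 was near that of all genes. Because the set was chosen with earlier results known, and all genes were not matched to it by count, these shares are description only. Fold changes below are log2 values against vehicle with the authors' standard error, for 3 treated and 4 vehicle samples. Percentages of the vehicle level with 95% intervals were computed from them. Values of single samples were not analysed here, so neither the spread over samples nor any overlap of groups can be given.

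The bases upstream of the gene start are shown for 4 genes that fell together under SB431542, because the GC-rich stretches common to them can be seen by eye. The rule took the member with the lowest adjusted p in each role group, among those with a promoter entry whose 250 bases upstream meet no annotated exon, and of these the 4 with the lowest adjusted p. Tnc and Timp1 led their groups too and fell outside the 4. Capitals mark matches to the motifs searched on both strands, here the GC box of SP1 (GGGCGG, or CCGCCC on the other strand), the SMAD element (CAGAC, or GTCTG) and the RUNX motif (TGTGGT, or ACCACA). Sequences are RefSeq's, build GRCm38, 5′ to 3′ on the gene's strand. They span chr2:27886175-27886424 (plus strand) for Col5a1, chr16:57754738-57754987 (minus) for Col8a1, chr12:101819120-101819369 (minus, 1 of 2 starts) for Fbln5 and chrX:73483351-73483600 (plus) for Bgn.
Col5a1: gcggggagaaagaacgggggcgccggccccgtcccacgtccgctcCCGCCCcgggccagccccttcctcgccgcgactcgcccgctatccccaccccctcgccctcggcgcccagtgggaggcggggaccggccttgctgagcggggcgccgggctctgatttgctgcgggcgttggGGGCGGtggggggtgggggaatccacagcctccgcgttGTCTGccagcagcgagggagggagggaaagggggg
Col8a1: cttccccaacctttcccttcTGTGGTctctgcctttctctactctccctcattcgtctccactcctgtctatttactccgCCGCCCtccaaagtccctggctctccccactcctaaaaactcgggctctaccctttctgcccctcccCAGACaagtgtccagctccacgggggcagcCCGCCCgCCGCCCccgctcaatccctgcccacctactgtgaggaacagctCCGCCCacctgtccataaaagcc
Fbln5: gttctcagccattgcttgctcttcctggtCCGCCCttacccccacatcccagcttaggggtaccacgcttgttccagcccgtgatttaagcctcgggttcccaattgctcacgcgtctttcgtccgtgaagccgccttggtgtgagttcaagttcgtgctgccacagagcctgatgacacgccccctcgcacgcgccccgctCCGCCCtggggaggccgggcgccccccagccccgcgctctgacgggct
Bgn: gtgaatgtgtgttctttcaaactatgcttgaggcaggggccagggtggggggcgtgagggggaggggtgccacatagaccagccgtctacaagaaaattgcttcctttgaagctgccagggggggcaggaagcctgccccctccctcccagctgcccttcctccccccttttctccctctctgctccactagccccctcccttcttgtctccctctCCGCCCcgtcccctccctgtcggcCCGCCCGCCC
A GC box stood in each of these stretches. In Col8a1 a SMAD element began 103 bases before the start and the RUNX motif 230 bases before it. In Col5a1 the SMAD element, on the other strand, began 35 bases before the start. Over windows of 300 bases (250 before and 50 after the start), RefSeq entries existed for 29 of the 42 genes, 34 windows in all. The windows of genes listed for SB431542 cover 13 of those 20 genes, with 2 windows each for Fbln5 and Tnc. Col1a1, Col5a2, Col12a1, Fn1, Eln, Fbn2 and Ccn5 had no entry. A GC box was found in 14 of the 15 windows of genes listed for SB431542, in 9 of the 15 windows of genes in no table, and in 35.7% of all 32851 windows. The SMAD element was found in 9 of 15, 8 of 15 and 49.6% of windows in that order. The RUNX motif stood in 1 of 15, 2 of 15 and 16.8%. Matches that overlap were each counted. The median GC content was 60.3% in the windows of genes listed for SB431542, 57.3% in those of genes in no table and 52.7% in all windows. The AP-1 motif (TGANTCA) and the E2F motifs (TTTGGCGC and TTTCCCGC) were in no window of genes listed for SB431542, against 7.81% and 1.56% of all windows. The TATA box (TATAAA) was in 2 of those 15 windows, both of Tnc, against 13.6% of all. These are counts of letters, and no binding was measured.

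Fibrillar collagens, the rope-forming chains, were listed for SB431542 in 4 of 6 cases. Col1a1, the major chain of type I collagen, stood at -1.08 ± 0.054 in the authors' deposited table, or 47.2% of vehicle (43.8 to 50.7). Its partner chain Col1a2 stood at -0.90 ± 0.061 in the authors' deposited table, or 53.4% of vehicle (49.2 to 58.0). Both chains of the type I trimer were therefore in the table. For type V collagen, which sets fibril diameter, Col5a2 stood at -0.95 ± 0.055 and Col5a1 at -0.59 ± 0.049 in the authors' deposited table. Col5a2 was at 51.9% of vehicle (48.2 to 55.9) and Col5a1 at 66.3% (62.0 to 71.0), and these intervals did not overlap. Col5a1 lay just inside the fold limit, whose smallest listed size was 0.58. Col3a1, which lies 24.6 kb from Col5a2 on chromosome 1, and Col11a1 were in no table. None of these 6 chains was listed for the RUNX1 inhibitor or HLM006474. Fibrillar chains outside the 6 were counted with the list of other collagen chains read further below. From that list, Col11a2 of type XI collagen was lower under the RUNX1 inhibitor (-1.22 ± 0.43) and HLM006474 (-1.78 ± 0.43) in the authors' deposited tables.

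Among the other collagens 4 of 7 were lower under SB431542 and 1 of 7 under HLM006474. Col7a1, which forms the anchoring fibrils of basement membranes, stood at -2.52 ± 0.32 in the authors' deposited table, or 17.5% of vehicle (11.3 to 27.1). Of the 23 listed matrix genes it had the lowest value, and its error was 2.65 times the median of 183 listed genes within 2-fold of its mean count. Of those 183 genes 0.546% had a larger error. Col12a1, a fibril-associated collagen, stood at -0.93 ± 0.050 and the short-chain collagen Col8a1 at -0.87 ± 0.073 in the authors' deposited table. Those values are 52.4% (48.9 to 56.1) and 54.7% (49.6 to 60.4) of vehicle. Col4a2, a chain of the basement membrane network, stood at -0.61 ± 0.034 in the authors' deposited table, or 65.6% of vehicle (62.6 to 68.7). Col4a1, the other chain of the same trimer, was in no table. The annotated genes are head to head on chromosome 8 and overlap by 22 bases, so they share their start region. Col6a2, a chain of beaded microfibrils, was listed for HLM006474 only, at -0.63 ± 0.070 in the authors' deposited table, or 64.4% of vehicle (58.5 to 70.9). Its neighbour Col6a1, 85.2 kb away, was in no table.

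Elastic fibre and adhesive glycoproteins had the fullest listing, with 6 of 7 lower under SB431542. Fn1, fibronectin, which joins collagen to integrins, stood at -0.87 ± 0.060 in the authors' deposited table, or 54.6% of vehicle (50.3 to 59.2). Elastin, Eln, the stretchable core of elastic fibres, stood at -1.07 ± 0.10 under SB431542 and -0.69 ± 0.10 under HLM006474 in the authors' deposited tables. These are 47.7% (41.4 to 55.0) and 62.1% (54.1 to 71.2) of vehicle. Fbn1, fibrillin of the microfibril scaffold, stood at -0.91 ± 0.091 in the authors' deposited table, or 53.3% of vehicle (47.1 to 60.3). Fbln5, a fibulin that assembles elastic fibres, stood at -0.93 ± 0.067 in the authors' deposited table, or 52.4% of vehicle (47.9 to 57.4). Fbln2 stood at -0.58 ± 0.11 in the authors' deposited table and was the last of the 401 lower genes by size of fall. Fbn2, a second fibrillin prominent in development, was the 1 matrix gene in all 3 tables. It stood at -0.82 ± 0.18 under SB431542, -0.78 ± 0.18 under the RUNX1 inhibitor and -1.25 ± 0.19 under HLM006474 in the authors' deposited tables. That is 56.6% (44.1 to 72.6), 58.1% (45.2 to 74.6) and 42.0% (32.6 to 54.2) of vehicle, so the 3 intervals overlapped. All 3 comparisons share the same 4 vehicle samples. The remaining glycoprotein, Fbln1, was in no table.

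**Figure D1:**
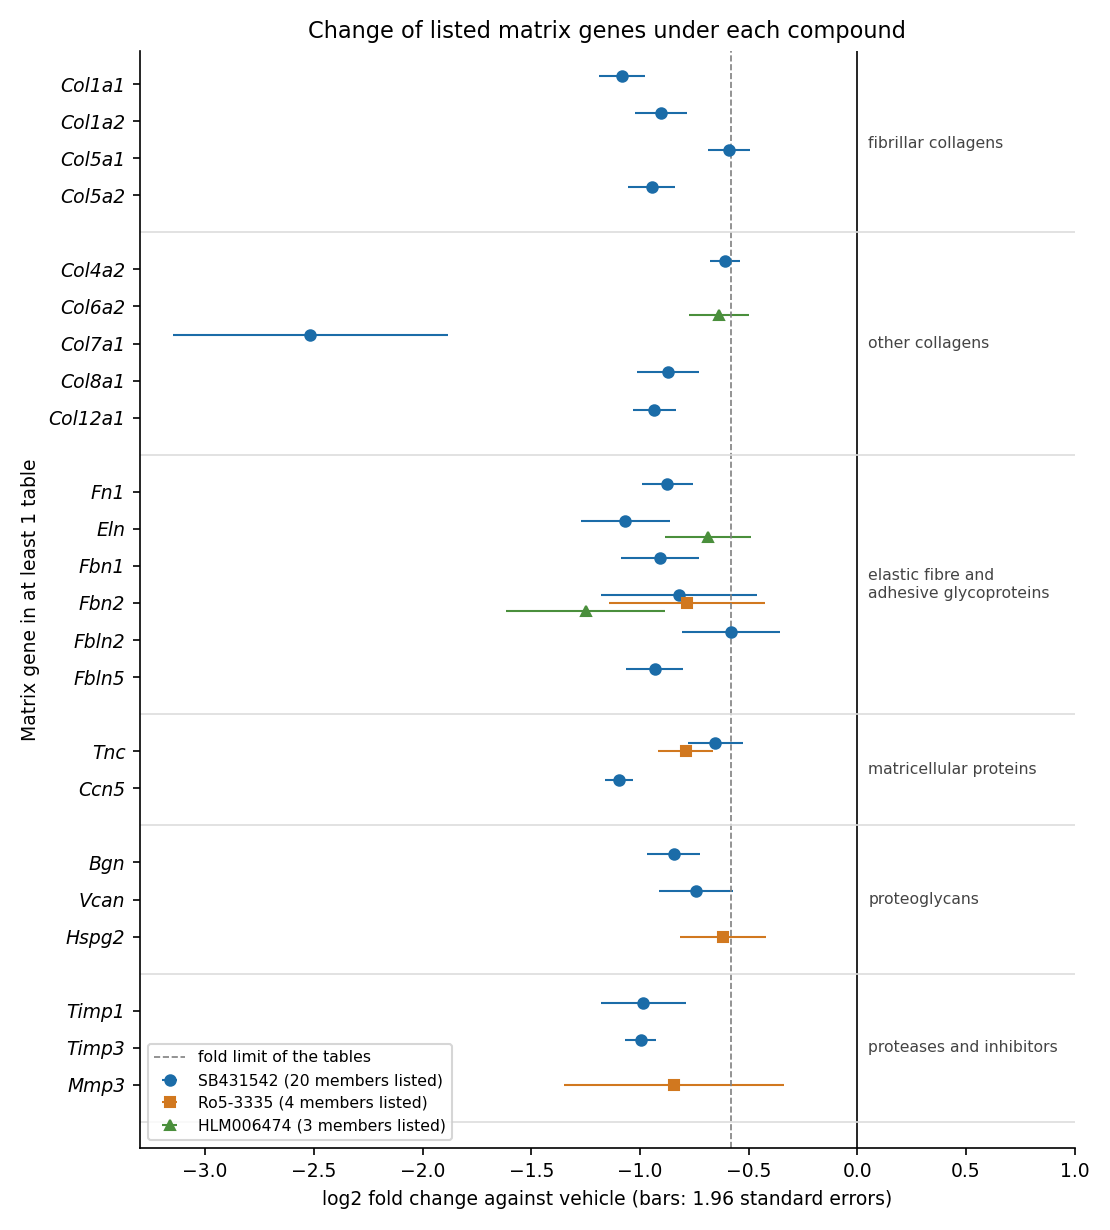
Log2 fold change against vehicle (x axis) of the 23 matrix genes in at least 1 table (y axis, by role), with bars of 95% intervals and a colour and marker for each compound. Every point lies left of 0, 20 of them for SB431542, and Col7a1 lies farthest left with the widest bar.

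Matricellular proteins modulate how cells contact the matrix, and 2 of 4 were lower under SB431542. Ccn5, a member of the CCN family, stood at -1.10 ± 0.033 in the authors' deposited table, or 46.8% of vehicle (44.7 to 48.9). Its p was the second lowest of all genes tested for SB431542, with an adjusted p of 3.37e-236 in the authors' deposited table. Its fall ranked 137 by size among listed genes, and its error was 0.56 times the median of 46 listed genes of similar count. Tenascin C, Tnc, an anti-adhesive protein of developing and injured tissue, stood at -0.65 ± 0.065 under SB431542 and -0.79 ± 0.065 under the RUNX1 inhibitor in the authors' deposited tables. These are 63.6% (58.2 to 69.4) and 57.8% (52.9 to 63.2) of vehicle. Postn and Sparc were in no table.

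Of 8 proteoglycans 2 were lower under SB431542 and 1 under the RUNX1 inhibitor. Biglycan, Bgn, a small proteoglycan that binds collagen, stood at -0.84 ± 0.062 in the authors' deposited table, or 55.7% of vehicle (51.2 to 60.6). Versican, Vcan, a large hyaluronan-binding proteoglycan, stood at -0.74 ± 0.087 in the authors' deposited table, or 59.8% of vehicle (53.2 to 67.3). Perlecan, Hspg2, the heparan sulfate proteoglycan of basement membranes, was listed for the RUNX1 inhibitor only, at -0.62 ± 0.10 in the authors' deposited table, or 65.2% of vehicle (56.8 to 74.8). For its mean count of 6950 that error was 1.78 times the median of 14 listed genes of similar count. The hyaluronan-binding lecticans Acan, Ncan and Bcan, and the leucine-rich Dcn and Lum, were in no table. Neither were the laminin chains Lama4, Lamb1 and Lamc1, the scaffold of basement membranes.

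Among the 7 proteases and inhibitors described here, the inhibitors Timp1 and Timp3 were listed for SB431542 and the protease Mmp3 for the RUNX1 inhibitor. Other proteases and inhibitors, counted further below, were lower under each compound. Timp3, a matrix-bound inhibitor of metalloproteases, stood at -0.997 ± 0.036 in the authors' deposited table, or 50.1% of vehicle (47.7 to 52.6). The rank of its p among all genes tested was 7. Timp1, a soluble inhibitor of the same family, stood at -0.98 ± 0.10 in the authors' deposited table, or 50.6% of vehicle (44.1 to 58.0). Timp1 lies within the span of Syn1 on chromosome X, and Timp3 within that of Syn3 on chromosome 10, each on the opposite strand. Whether the counting used strand is not given in the sources used here, so reads of these pairs may not be told apart. Syn1 and Syn3 were themselves lower under SB431542, Syn1 at -0.59 ± 0.16 and Syn3 at -0.61 ± 0.20 in the authors' deposited table. Their mean counts were 221 and 289.9, against 534 for Timp1 and 25642 for Timp3, and their part in the falls of Timp1 and Timp3 was not tested. Mmp3, stromelysin, a protease of many matrix proteins, stood at -0.84 ± 0.26 under the RUNX1 inhibitor in the authors' deposited table, or 55.8% of vehicle (39.3 to 79.1). It rests on a mean count of 52.6, the lowest of the 23 genes. Mmp2, Mmp14, Adamts1 and Adamts5 were in no table.

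The 20 falls in the SB431542 table had a median of -0.91, beside -0.88 for all 401 lower genes, and both sets passed the same limit. By share of vehicle they ran from 17.5% to 66.8% with a median of 53.4%, and 4 of the 20 were at least 2-fold lower: Col7a1, Ccn5, Col1a1 and Eln. Their mean counts ran from 228 for Fbn2 to 50778 for Fn1.

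**Figure D2:**
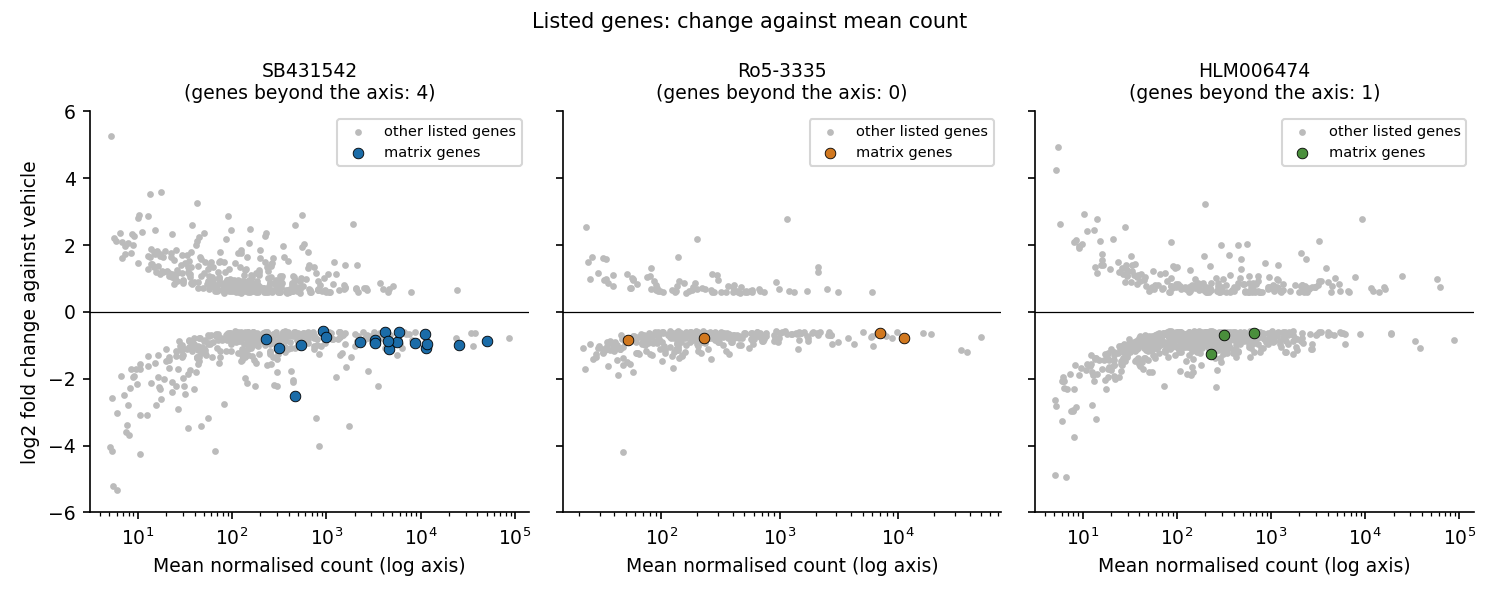
Log2 fold change against vehicle (y axis) by mean normalised count (x axis, log) of every gene in each compound's table, with the matrix genes in colour. The 20 matrix genes under SB431542 lie below 0 at mean counts from 228 to 50778, and the gap around 0 is the fold limit of the tables.

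Levels were compared between genes per length, as the mean normalised count over all libraries divided by the length of the longest annotated coding transcript. Fn1 was highest at 6107 counts per kb, followed by Timp3 at 5430 and Ccn5 at 2673. Col1a1 stood at 1923, Col5a2 at 1783, Tnc at 1567 and Bgn at 1348 counts per kb. Col1a2 stood at 1054 counts per kb, so the mean of its partner Col1a1 was higher per length. In the middle were Col4a2 at 905, Col8a1 at 889, Col12a1 at 752, Timp1 at 605, Fbln5 at 565, Col5a1 at 497 and Hspg2 at 489.9 counts per kb. Low levels were found for Fbln2 at 194, Fbn1 at 188, Col6a2 at 142, Eln at 82.2, Vcan at 79.0 and Col7a1 at 50.6 counts per kb. Mmp3 at 29.2 and Fbn2 at 20.7 counts per kb were lowest. The order rests on means pooled over treated and vehicle libraries, with no spread, so neighbours in it cannot be said to differ. For Vcan, whose splice forms differ greatly in length, the value depends on the transcript chosen.

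**Figure D3:**
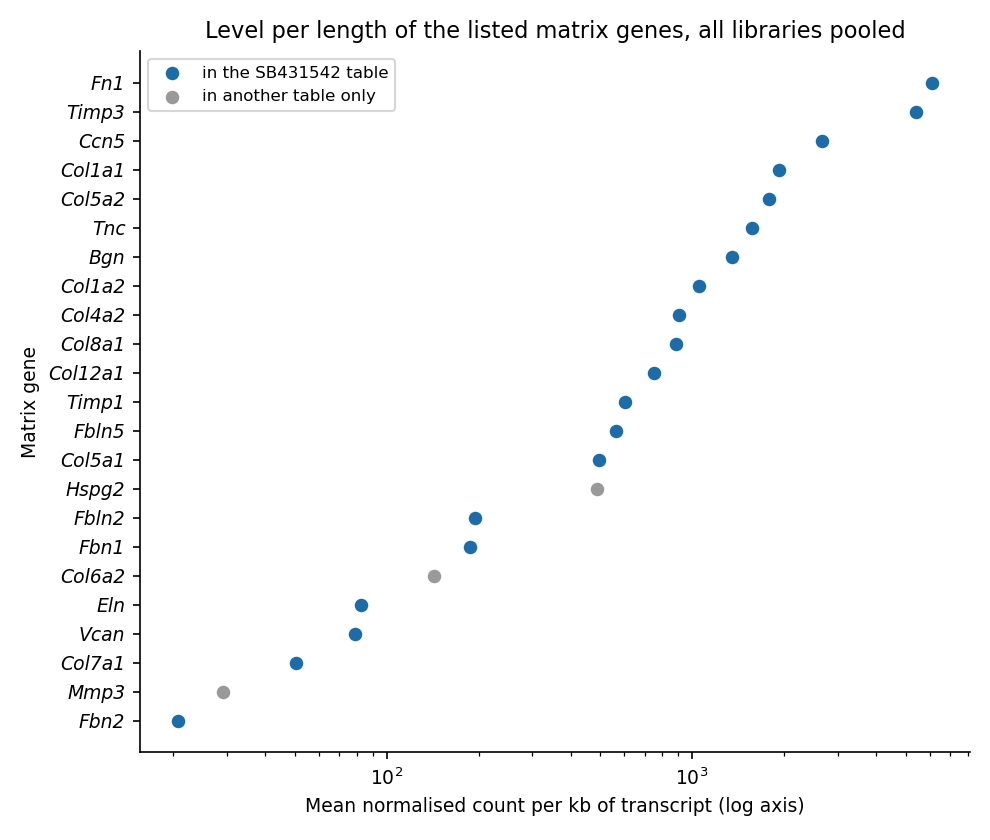
Mean normalised count per kb of transcript (x axis, log) of the 23 listed matrix genes (y axis), pooled over all 13 libraries, with genes of the SB431542 table in blue. The points span 20.7 counts per kb for Fbn2 to 6107 for Fn1.

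Differences between compounds were tested with a 2-sided z test on the log2 fold changes, with Benjamini-Hochberg adjustment over all genes in both tables. The test leaves out that the vehicle samples are shared, which makes its error too large where groups vary alike. For SB431542 against HLM006474 it called 1 of 2 shared matrix genes, beside 32.9% of 161 shared genes. Eln was lower under SB431542 by 0.38 (difference -0.38 ± 0.15, 95% interval -0.67 to -0.10, adjusted p = 0.0281 by the z test over DESeq2 estimates), and a Bonferroni adjustment ended this call. Fbn2 differed by 0.43 ± 0.26 in the other direction (interval -0.08 to 0.94, adjusted p = 0.214 by the same test). For SB431542 against the RUNX1 inhibitor the z test called 0 of 2, and 0 at an unadjusted p under 0.05, beside 17.2% of 93 genes. Tnc differed by 0.14 ± 0.092 (interval -0.04 to 0.32) and Fbn2 by -0.04 ± 0.26 (interval -0.55 to 0.47). For the RUNX1 inhibitor against HLM006474 the z test called 0 of 1, and 0 at an unadjusted p under 0.05, beside 9.52% of 210 genes, with Fbn2 at a difference of 0.47 ± 0.26 (interval -0.05 to 0.98). The intervals for Fbn2 are wide enough to hold differences of 0.47 in either direction for SB431542 against the RUNX1 inhibitor.

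For a gene in 1 table only, absence from the other table bounds its change there, provided that the gene was tested in it. A fall was set against the largest size that such a gene could have, 0.58 or, for noisy genes, the size its error would need to pass the p limit. Genes tested this way had passed nearly the same limits in their own table, so the sign of the excess was largely set in advance. The same estimates served for selection and for the test, which favours low p-values. By this z test, 13 of the 18 matrix genes in the SB431542 table and not in that of the RUNX1 inhibitor fell farther under SB431542 than the bound, beside 18.8% of 573 such genes. Against HLM006474 it was 12 of 18, beside 14.5% of 587. The bound is easier to pass with a small error. These 573 and 587 genes were not matched to the matrix genes by count or error. All genes listed for SB431542 had a median mean count of 155 and a median error of 0.186, and the matrix genes among them had mean counts from 228 to 50778. The shares therefore compare genes of unlike precision. With Bonferroni adjustment 5 passed against each compound: Col1a1, Col5a2, Col12a1, Ccn5 and Timp3. Ccn5 exceeded the bound by 0.52 ± 0.047 in each case (adjusted p = 2.24e-26 and 3.03e-26 by the z test over DESeq2 estimates). Col1a1 exceeded it by 0.50 ± 0.076 (adjusted p = 7.16e-10 and 1.01e-09) and Timp3 by 0.42 ± 0.051 (adjusted p = 1.32e-14 and 1.63e-14). Col7a1, whose bound was wider at 0.83 for the RUNX1 inhibitor and 0.80 for HLM006474, exceeded it by 1.68 ± 0.46 and 1.71 ± 0.46 (adjusted p = 0.00197 and 0.00235). Both calls ended with Bonferroni adjustment (adjusted p = 0.132 and 0.106 by the z test over DESeq2 estimates). Col5a2, Col12a1, Col1a2, Fbln5, Fn1, Bgn, Col8a1 and Timp1 also passed against both compounds, and Eln against the RUNX1 inhibitor. Of these 9, all but Col5a2 and Col12a1 lost the call under Bonferroni adjustment, and Bgn, Col8a1 and Timp1 also lost it against both compounds with the assumed error raised by 25%. Col5a1, Col4a2, Fbn1, Fbln2 and Vcan passed against neither, and Tnc did not against HLM006474. The nearest was Fbn1, over the bound by 0.33 ± 0.13 (adjusted p = 0.0579 and 0.0740), and it passed against both with the shared vehicle taken out of the error. In the opposite direction no member passed. Neither Hspg2 nor Mmp3 passed for the RUNX1 inhibitor against SB431542 (0 of 2, beside 0.658% of 304 genes, and 0 unadjusted). With Tnc added, 0 of 3 passed for the RUNX1 inhibitor against HLM006474 (beside 0% of 186 genes, and 1 unadjusted, Tnc). For HLM006474 the z test called 0 of 1 against SB431542 (Col6a2, beside 5.92% of 692 genes, 0 unadjusted) and 0 of 2 against the RUNX1 inhibitor (Col6a2 and Eln, beside 4.92% of 569, 0 unadjusted).

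Other genes of matrix building were read from 7 lists. Of all genes tested, 2.64% were lower and 2.29% higher under SB431542. For the RUNX1 inhibitor these shares were 2.32% and 0.605%, and for HLM006474 4.22% and 1.42%. A count of 1 gene in these lists lies near such a share and is no result about the list. Of 26 collagen cross-linking and processing enzymes SB431542 lowered 5, the RUNX1 inhibitor 1 and HLM006474 3, and none was raised. Loxl2, a lysyl oxidase that cross-links collagen, stood at -0.81 ± 0.058 under SB431542 in the authors' deposited table. Of 30 other collagen chains 4 were lower and 1 higher under SB431542, 1 was lower under the RUNX1 inhibitor and 3 under HLM006474. The cartilage collagen Col2a1 stood at -2.10 ± 0.12 in the authors' deposited table for SB431542. Col14a1, a fibril-associated collagen, stood at -2.04 ± 0.15 under SB431542 and -1.16 ± 0.14 under HLM006474 in the authors' deposited tables, a difference of -0.88 ± 0.20 (z test over DESeq2 estimates, adjusted p = 6.92e-05). Of 54 other matrix glycoproteins 16 were lower and 1 higher under SB431542, and 5 and 8 were lower under the RUNX1 inhibitor and HLM006474. Ccn2, connective tissue growth factor, stood at -1.28 ± 0.059 in the authors' deposited table for SB431542. Ltbp2, a latent TGF-beta binding protein of microfibrils, was in all 3 tables, at -1.22 ± 0.080 under SB431542, -0.85 ± 0.079 under the RUNX1 inhibitor and -0.87 ± 0.079 under HLM006474 in the authors' deposited tables. Its fall under SB431542 was larger than under the RUNX1 inhibitor (difference -0.38 ± 0.11, adjusted p = 0.00595) and HLM006474 (-0.36 ± 0.11, adjusted p = 0.00509) by the z test over DESeq2 estimates.

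Of 30 other proteoglycans and hyaluronan genes 7 were lower under SB431542, 1 under the RUNX1 inhibitor and 3 under HLM006474. In the authors' deposited table for SB431542, the membrane-anchored glypicans Gpc1 and Gpc6 were at -0.67 ± 0.060 and -0.83 ± 0.086. Of 41 other proteases and inhibitors 6 were lower and 2 higher under SB431542, 3 were lower under the RUNX1 inhibitor, and 3 were lower and 1 higher under HLM006474. Plau, urokinase, a protease that activates plasminogen, rose by 1.16 ± 0.066 under SB431542 and stood at -1.07 ± 0.077 under HLM006474 in the authors' deposited tables. That difference of 2.23 ± 0.10 passed the z test over DESeq2 estimates (adjusted p = 1.39e-105). Mmp12, the macrophage elastase, rose under both, by 2.19 ± 0.27 under SB431542 and by 2.09 ± 0.27 under HLM006474 in the authors' deposited tables. Of 23 matrix receptors 5 were lower and 1 higher under SB431542, and 1 was lower under each of the others. The integrin chain Itgav, part of fibronectin and vitronectin receptors, stood at -0.61 ± 0.066 under SB431542 in the authors' deposited table. Of 18 TGF-beta ligands, receptors and feedback genes 4 were lower under SB431542 and none was listed for the other compounds. Skil, a SMAD co-repressor, stood at -1.66 ± 0.062 and the inhibitory Smad7 at -1.06 ± 0.15 in the authors' deposited table.

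**Figure D4:**
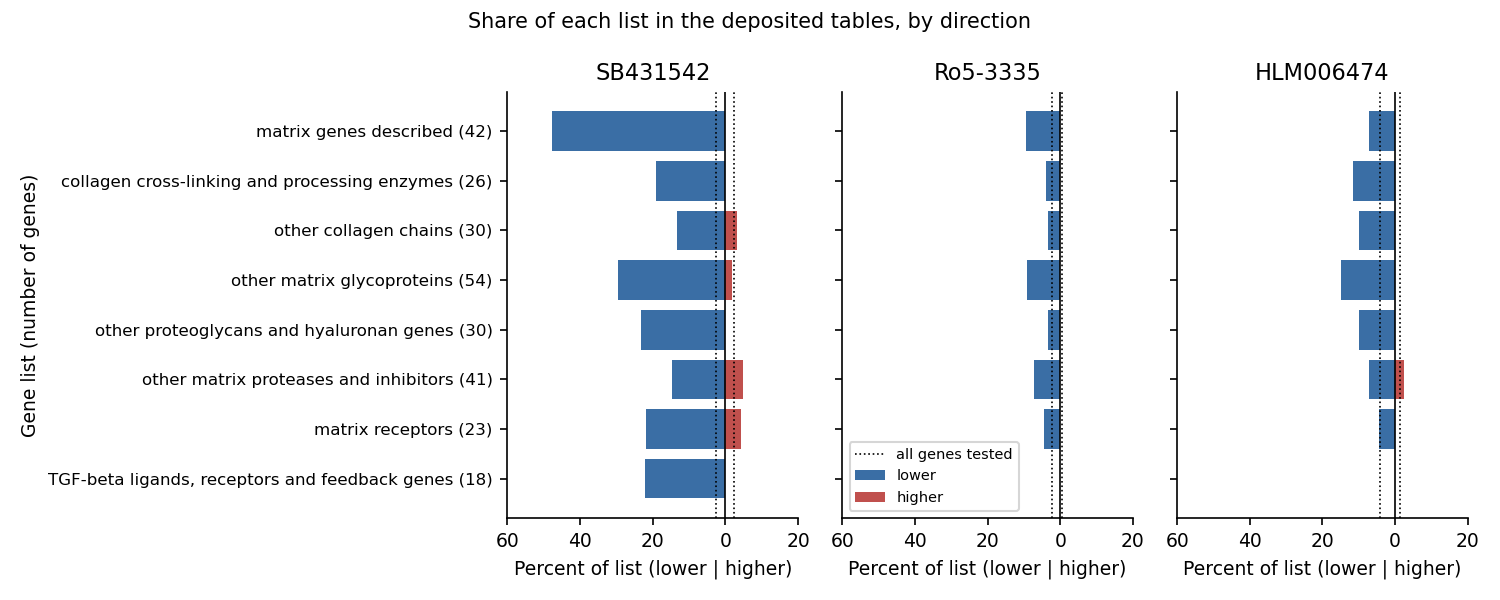
Percent of each gene list (y axis, number of genes in brackets) in each compound's table, lower to the left and higher to the right of 0, with dotted lines at the share of all genes tested. The 42 matrix genes reach 47.6% lower under SB431542, 9.52% under the RUNX1 inhibitor and 7.14% under HLM006474, with no bar to the right.

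Matrix genes are expressed by several cell types, and in these bulk samples fewer cells of a type and less RNA per cell cannot be told apart. The astrocyte genes Kcnj10 and Fabp7 had mean counts of 23892.5 and 18965, and the levels of the other 10 astrocyte markers were not analysed here. The marker counts can be read beside the shares of all genes tested given above for the other lists. With marker lists this short, 1 gene is no result about a cell type. Of the 12 astrocyte markers 1 was lower under each compound and none higher. In the authors' deposited tables Kcnj10 was at -0.77 ± 0.037 under SB431542, and Fabp7 at -0.67 ± 0.055 under the RUNX1 inhibitor and -0.64 ± 0.055 under HLM006474. Of 8 fibroblast markers 0 were listed for SB431542, 1 was lower under the RUNX1 inhibitor (Cd34, -0.62 ± 0.11 in the authors' deposited table) and 2 under HLM006474. Cd34 and Pdgfra, the latter also found on oligodendrocyte precursors, were at -0.89 ± 0.12 and -0.84 ± 0.14 for HLM006474 in the authors' deposited table. Of 8 pericyte and mural markers 2 were lower and 1 higher under SB431542, 0 were listed for the RUNX1 inhibitor and 2 were lower under HLM006474. The endothelial gene Flt1, 1 of 7 markers, was lower under SB431542 and the RUNX1 inhibitor. Of 9 microglia and macrophage markers 4 were lower and 3 higher under SB431542, 0 were listed for the RUNX1 inhibitor, and 3 were lower and 1 higher under HLM006474. The listed ones had mean counts of up to 24249. Under SB431542 their changes ran from -4.00 ± 0.11 to 2.64 ± 0.11 in the authors' deposited table. Of 9 oligodendrocyte markers 5 were lower under HLM006474 and 0 were listed for the others. The summed level of these lists per group was not analysed here, and their part in the matrix falls was not tested.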

How the data were processed

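CASAVA 1.8, STAR 2.7, DESeq2 1.30.1 and build GRCm38 are named in the submitters' processing notes. For the read counter, annotation and strand setting, the answer is not given in the sources used here. Each of the 3 tables deposited by the authors gives per gene a mean normalised count, a signal level over all libraries, per the file headers. It also gives a log2 fold change against vehicle with its standard error, a Wald score, a p-value and an adjusted p-value, all per the file headers. Genes in more than 1 table had an identical mean count in each, as from 1 fit. With no single-sample values analysed here, library depth is unknown and the standard errors state the precision. No gene was tested anew, since the tables hold called genes only and counts could not be refitted.

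The number of genes tested was taken from the ratio of p to adjusted p, as the number that makes most ranks whole within 0.02 (80.5%, 83.6% and 81.1% of ranks for SB431542, the RUNX1 inhibitor and HLM006474, and at most 16.0% for other numbers save multiples). Differences and bounds were computed with Python 3.11.15 and scipy 1.17.1. On simulated data only the recovery of the number of genes tested was checked. Differences and bounds were run there with changes of a single large size, so their behaviour near the fold limit was not examined. The p limit of a table is the largest p it lists, and a gene outside a table was given the error it had where it was listed. The bound was computed only for genes whose mean count reached the lowest one listed in the table they are absent from. Coordinates and transcript lengths are from GENCODE M21 (GRCm38). Promoter windows are from RefSeq (GRCm38.p6). Protein sequences were not used here.

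The members and lists were chosen with earlier results of these data known. Every member is accounted for, and at most 4 genes with the lowest adjusted p in any table were named from each other list. A gene of these lists is not reported here. Alternatives were a stricter adjusted p, fold or mean count, another error, and Bonferroni adjustment.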

Additional observations from a re-analysis of the deposited data

How the results depend on the processing

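No matrix gene was lost at an adjusted p under 0.01, and a mean count of at least 100 left out Mmp3 only. At a fold change of at least 2, SB431542 kept 4 listed matrix genes, HLM006474 kept 1 and the RUNX1 inhibitor 0. With Bonferroni adjustment the matrix genes past the bound for SB431542 numbered 5 against the RUNX1 inhibitor and 5 against HLM006474. Of the 2 matrix genes in both the SB431542 and HLM006474 tables, 0 were then called different. With the error of the absent gene raised by 25%, these bound counts were 10 and 9. With the shared vehicle taken out of the error they were 14 and 13. Before adjustment by Bonferroni, 13 and 12 matrix genes were past these bounds and 1 difference was called. Over single genes, Bonferroni adjustment ended 16 calls. The other 33 results kept their label, but they include results that were not called before, which this adjustment could not change. Every alternative used the same estimates, so no direction could turn. Leaving out single samples was not run, since no single-sample values were analysed. No paired analysis was possible because the tables hold no single-sample values, although the sample titles carry replicate numbers. Library depth is unknown, so its effect on these counts was not tested.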
